A study of Arabidopsis thaliana with 12 samples.

Results

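The genes described here are nuclear genes of Arabidopsis thaliana for the plastid NDH complex. The 5 genes comprised 2 subunits, NdhS (AT4G23890) and NdhN (AT5G58260), and 3 accessory factors, CRR41 (AT1G51100), CRR21 (AT5G55740) and PIFI (AT3G15840). They were chosen, with earlier results of these data known, among genes for this complex with a probe of their own. A probe of its own means that the platform annotation gives the probe 1 gene symbol. The editing factor OTP85 also has such a probe but was not among the 5, and it is described further below. The 5 genes were 5 of 692 such probes and 5 of 3439 probes in all. The 12 arrays held total RNA of ecotype Columbia 0, on 6 arrays from wild-type plants (WT) and on the other 6 from the psan mutant, which lacks the photosystem I protein PSI-N. The labels add no further allele, treatment, age or tissue. They do not tell whether the numbered samples are separate plants, cultures or repeat measurements, so the p-values cover the spread among arrays and that spread may be technical.

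The NDH complex sits in the thylakoid membrane, takes electrons from reduced ferredoxin and passes them to plastoquinone. It thereby returns electrons from the acceptor side of photosystem I to the intersystem chain, a route called cyclic electron flow, and it also reduces plastoquinone in darkness. In flowering plants it is bound to photosystem I in a supercomplex, its core subunits are encoded by the ndh genes of the plastid genome, and further subunits and the factors that assemble it or edit its transcripts are encoded in the nucleus. PSI-N is a small lumenal subunit of photosystem I that takes part in the docking of plastocyanin. The comparison asked whether transcripts for NDH subunits and for NDH factors differed when PSI-N was missing.

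The values were deposited intensities, in arbitrary linear units with a floor at 0 and a ceiling of 100. Each array had 161 to 521 probes at 0, and all 5 NDH genes were above 0 on all 12 arrays. WT arrays 1 and 2 had the most probes at 0, 499 and 521. The other WT arrays had 161 to 215 and the psan arrays 213 to 371. The fit was therefore also run without WT arrays 1 and 2. PSAN (AT5G64040), the gene of PSI-N, lay between 4.40 and 7.77 in WT and between 0.0681 and 0.243 in psan, so the genotype labels held on every array, although where the probe lies relative to the disruption is not known here. Before normalisation the psan arrays were brighter over the dim probes, with a median log2 fold change over all probes of 0.46, so fold changes are given after quantile normalisation unless stated otherwise. The arrays of a group resembled each other most in the pairs 1 with 2, 3 with 4 and 5 with 6, with correlations of their deviations from the group mean of 0.0331 to 0.601 over 2243 probes. Whether these pairs are repeat measurements of 1 sample is not known, so tests with averaged pairs, leaving 3 values in each group, stand beside the tests of each gene. Ratios and correlations are given over single arrays only. An exact permutation test of 3 against 3 cannot go below a p of 0.1. No probe of the 5 seed and root marker genes listed as a check for other tissue was on the array under its name.

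Transcripts for 3 of the 5 genes were higher in psan. These were the subunit NdhS, the assembly factor CRR41 and the RNA editing factor CRR21, with log2 fold changes of 0.94 ± 0.19 (SE), 1.65 ± 0.44 and 1.37 ± 0.41. The subunit NdhN and the factor PIFI had -0.14 ± 0.52 and -1.04 ± 0.49 and did not pass. The labels do not give the tissue, and a different mix of cells and a different amount of RNA per cell cannot be told apart. Limma's test with Benjamini-Hochberg adjustment over all 3376 probes tested, at a threshold of 0.05 with n = 6 in each group, called 29.9% of the probes, 14.3% higher and 15.6% lower. Of the 5 genes it called 3 higher and 0 lower, and at an unadjusted p under 0.05 the same limma test also had 3 higher and 0 lower, against 19.7% and 21% of all probes. The median log2 fold change was 0.94 over the 5 genes and -0.015 over all probes tested. These medians were 0.63 and 0.46 as deposited, and -0.041 and -0.20 after centring every array on its own median. In each case the median of the 5 was the value of NdhS. The split over all probes depended on scaling. On the values as deposited 29.8% were called, 22.3% higher and 7.52% lower, and 3 of the 5 genes were higher. After centring every array on its own median 30.1% were called, 10.1% higher and 20.1% lower, and 2 of the 5 genes were higher.

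With pairs averaged, limma called 0 of the 5 genes, against 4.3% of all probes. At an unadjusted p under 0.05 it then had 3 of the 5 genes higher and 0 lower, against 13.2% and 13.7% of all probes. A fit with the pair as a random effect, which keeps all 12 arrays and estimates the correlation within pairs (0.567), called 1 of the 5 genes, NdhS, against 16.4% of all probes.

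**Figure D1:**
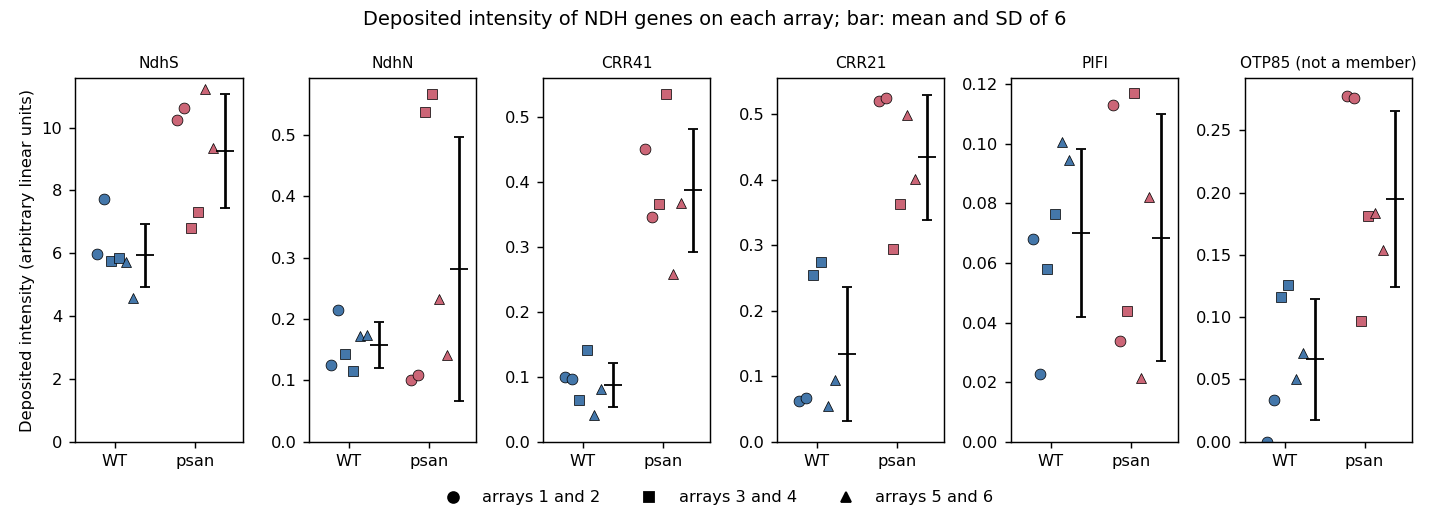
Deposited intensity (arbitrary linear units, vertical axis from 0) of the 5 NDH genes and of OTP85, a further NDH editing factor, on the 6 WT (blue) and 6 psan (red) arrays; symbols mark arrays 1 and 2, 3 and 4, and 5 and 6, and the black bar is the mean and SD of 6 arrays. CRR41 and CRR21 do not overlap between the groups, and 14.6% of all probes tested had every psan array above every WT array. NdhS and OTP85 overlap in part, and NdhN is highest on psan arrays 3 and 4.

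NdhS is the subunit that forms the docking site for ferredoxin on the stromal side of the complex. Its deposited intensity had a lowest, median and highest value of 4.58, 5.80 and 7.73 on the WT arrays and 6.81, 9.80 and 11.2 on the psan arrays. Psan arrays 3 and 4 were the lowest of their group, at 6.81 and 7.31, and lay below WT array 2 at 7.73, while the other 4 psan arrays lay above every WT array. The mean was 5.93 ± 1.01 (SD, n = 6) for WT and 9.26 ± 1.82 (SD, n = 6) for psan, a ratio of 1.56. An exact permutation test of the 6 against 6 intensities gave a two-sided p of 0.00649, and 0.1 with pairs averaged.

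After normalisation the NdhS groups no longer overlapped, with log2 signals of 2.07 to 2.85 in WT and 3.05 to 3.65 in psan. Of all probes tested, 9.06% had every psan array above every WT array on this scale. The NdhS log2 fold change of 0.94 (95% interval 0.52 to 1.35) had a limma adjusted p of 0.00308, or 0.124 with pairs averaged and 0.0227 under the random pair effect. NdhS lay at the 98.4th percentile of brightness. Among the other 343 probes in the brightest 10%, the median log2 fold change was 0.0043, with 22.2% called higher and 24.2% called lower. The NdhS rise was lost when each array was centred on its median, with -0.04 and an adjusted p of 0.918. That scaling takes the same shift from all probes of an array. Before normalisation the median log2 fold change was 0.012 over the brightest 10% and 0.71 over the 10% that holds CRR41. Which scaling suits these arrays was not tested.

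NdhN is a subunit of the stromal arm of the complex. Its deposited intensity had a lowest, median and highest value of 0.115, 0.158 and 0.215 on the WT arrays and 0.101, 0.186 and 0.567 on the psan arrays. Psan arrays 3 and 4, at 0.538 and 0.567, were far above the rest, whereas psan arrays 1 and 2, at 0.101 and 0.109, lay below every WT array. The coefficient of variation was 23.5% in WT and 76.5% in psan. The exact permutation p was 0.294, and 0.7 with pairs averaged.

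The log2 fold change of NdhN, -0.14, had a 95% interval of -1.27 to 1.0 and a limma adjusted p of 0.874, or 0.925 with pairs averaged. Its sign rested on single pairs of arrays. It was -0.89 without psan arrays 3 and 4 (adjusted p = 0.0805), 0.50 without psan arrays 1 and 2 (adjusted p = 0.494), 0.02 without psan arrays 5 and 6 and 0.14 without WT arrays 1 and 2. As deposited it was 0.51, below the median of 0.72 over the other 343 probes of its brightness. The interval holds changes in both directions, so neither a rise nor a fall of such a size was excluded.

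CRR41 is a stromal factor needed to assemble the stromal arm of the complex and is no part of the finished complex. Its deposited intensity had a lowest, median and highest value of 0.0415, 0.0887 and 0.142 on the WT arrays and 0.258, 0.367 and 0.535 on the psan arrays. Every psan array lay above every WT array, as did 14.6% of all probes tested on this scale. The means were 0.0875 ± 0.0343 (SD, n = 6) and 0.387 ± 0.0948 (SD, n = 6), a ratio of 4.42, and the exact permutation p was 0.00216, the smallest that 6 against 6 allows. With pairs averaged it was 0.1.

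The CRR41 log2 fold change after normalisation, 1.65 (95% interval 0.70 to 2.61), was a 3.15-fold rise with a limma adjusted p of 0.0135. Its groups did not overlap on this scale either, and 9.06% of all probes tested had every psan array above every WT array. The adjusted p was 0.121 with pairs averaged, 0.0840 under the random pair effect and 0.0523 without psan arrays 3 and 4. Under the 6 other scalings and corrections tried its log2 fold change ran from 1.37 to 2.21 and passed in each. In the 10% of probes with its brightness, 14.9% of the others were called higher, and 11.1% had a log2 fold change of at least its size in either direction.

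CRR21 is a pentatricopeptide repeat protein needed to edit a site in the plastid ndhD transcript, which encodes a membrane subunit of the complex. Its deposited intensity had a lowest, median and highest value of 0.0546, 0.0804 and 0.275 on the WT arrays and 0.294, 0.451 and 0.526 on the psan arrays. WT arrays 3 and 4, at 0.255 and 0.275, stood above the other 4 WT arrays, which reached 0.0948, and came close to psan array 3 at 0.294. No WT array reached a psan array, as for 14.6% of all probes tested on this scale. The other 343 probes of its brightness had a median log2 fold change of 0.71 as deposited. The means were 0.135 ± 0.102 (SD, n = 6) and 0.434 ± 0.0959 (SD, n = 6), a ratio of 3.23. The exact permutation p was 0.00216, and 0.1 with pairs averaged.

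After normalisation the CRR21 groups overlapped, because WT arrays 3 and 4, at -1.83 and -1.76, lay above psan array 3 at -1.97. The log2 fold change of 1.37 (95% interval 0.49 to 2.25) was a 2.58-fold rise with a limma adjusted p of 0.0233. The call did not hold with pairs averaged (adjusted p = 0.179), under the random pair effect (0.0748) or without WT array 6 (0.0515). It also did not hold without WT arrays 1 and 2 (0.0552), WT arrays 5 and 6 (log2 fold change 0.83, adjusted p = 0.0654), psan arrays 1 and 2 (0.0801) or psan arrays 5 and 6 (0.0765).

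PIFI is a plastid protein needed for the rise of chlorophyll fluorescence after light is switched off, a signal of plastoquinone reduction through the NDH complex. Its deposited intensity had a lowest, median and highest value of 0.0227, 0.0723 and 0.101 on the WT arrays and 0.0214, 0.0629 and 0.117 on the psan arrays. The groups overlapped over nearly their whole range. Its probe was the dimmest of the 5, at the 17.5th percentile of brightness, and the 2 psan arrays of a pair differed 2.68-fold to 3.85-fold, against 1.04-fold to 1.20-fold for NdhS. The exact permutation p was 0.942, and 1 with pairs averaged.

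The normalised log2 fold change of PIFI was -1.04 (95% interval -2.10 to 0.020) with a limma adjusted p of 0.129, or 0.193 with pairs averaged. As deposited it was -0.15, where the other 343 probes of its brightness had a median of 0.58. The sign was negative under all 6 other scalings and corrections.

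**Figure D2:**
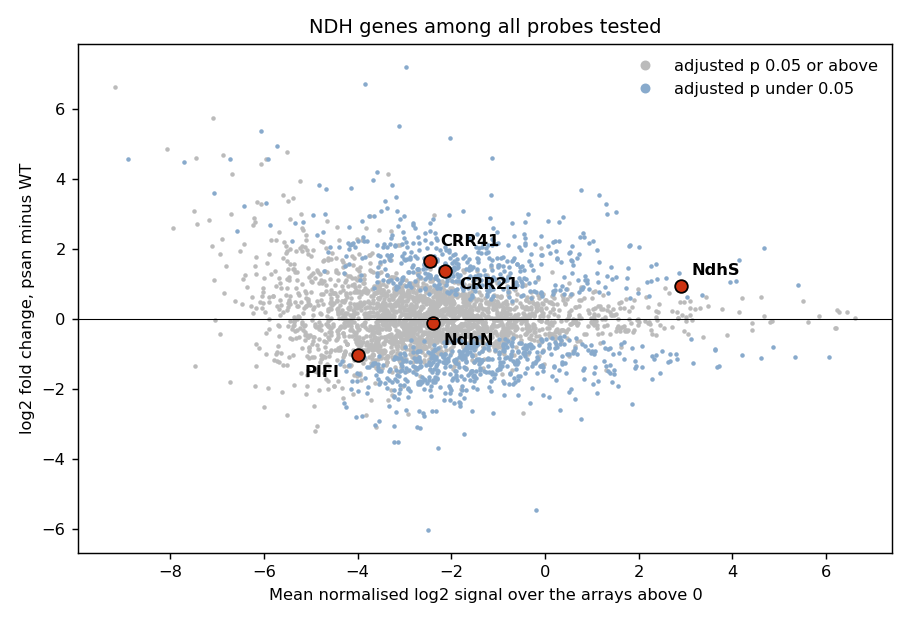
Log2 fold change, psan minus WT, against the mean normalised log2 signal for all 3376 probes tested; blue points have a limma adjusted p under 0.05 and red points are the 5 NDH genes. NdhS lies among the bright probes, CRR41 and CRR21 lie close together in the middle of the range, NdhN lies near 0 and PIFI lies among the dim probes.

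The fold change over all probes also followed the probe number, taken in rows of 12 numbers that repeat with a period of 288. The row length was a setting. Among multiples of 12, the period was the one with the highest autocorrelation of this same fold change, 0.224. The NDH genes fell into rows with different medians. NdhS was in a row with a median log2 fold change of -0.41 over its 136 other probes, of which 3.73% were called higher. CRR41 was in a row with a median of 0.032, where 13.4% were called higher. CRR21, NdhN and PIFI were in rows with medians of 0.53, 0.57 and 0.45, where 29.0%, 28.8% and 22.2% were called higher. The log2 fold changes of NdhS, CRR41 and CRR21 were 0.94, 1.65 and 1.37, and whether the rows contributed to them was not tested.

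After each array was corrected for the row and the column of the probe number, limma called 24.6% of all probes, 13.4% higher and 11.3% lower. NdhS then had 1.22 (adjusted p = 0.00140) and CRR41 had 1.37 (adjusted p = 0.00880). CRR21 had 0.76 and did not pass (adjusted p = 0.190). PIFI had -1.62 and passed (adjusted p = 0.0322), and NdhN had -0.85 and did not (adjusted p = 0.176). With this correction and pairs averaged together, limma called 0 of the 5 genes, against 0.474% of all probes, and at an unadjusted p under 0.05 it had 2 higher and 1 lower, against 12.1% and 10% of all probes.

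**Figure D3:**
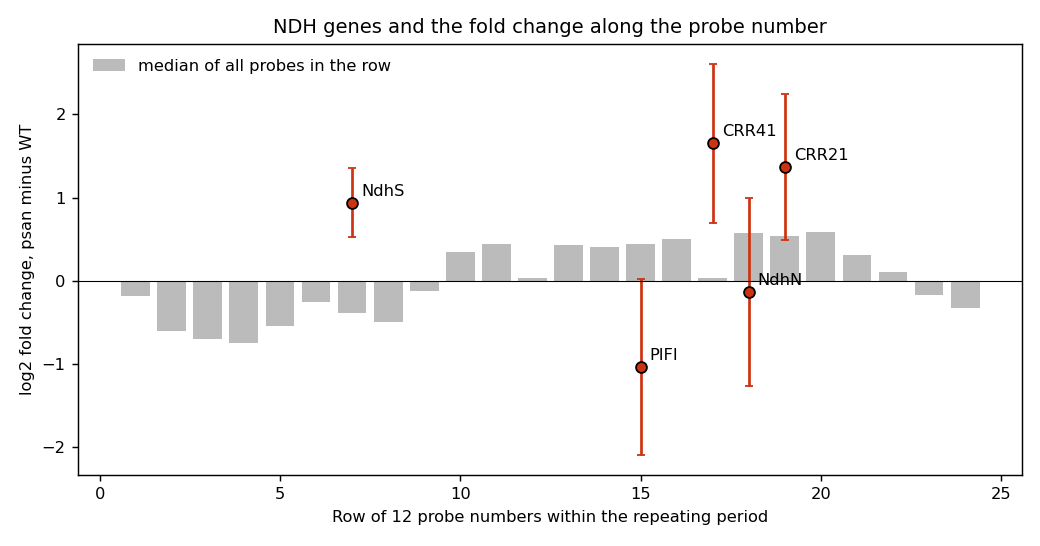
Log2 fold change, psan minus WT, of the 5 NDH genes (red, with the 95% interval of the fit) at their row of 12 probe numbers within the repeating period; grey bars are the median of all probes in each row. NdhS lies in a row with a median below 0 and the other 4 genes in rows with medians above 0.

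**Figure D4:**
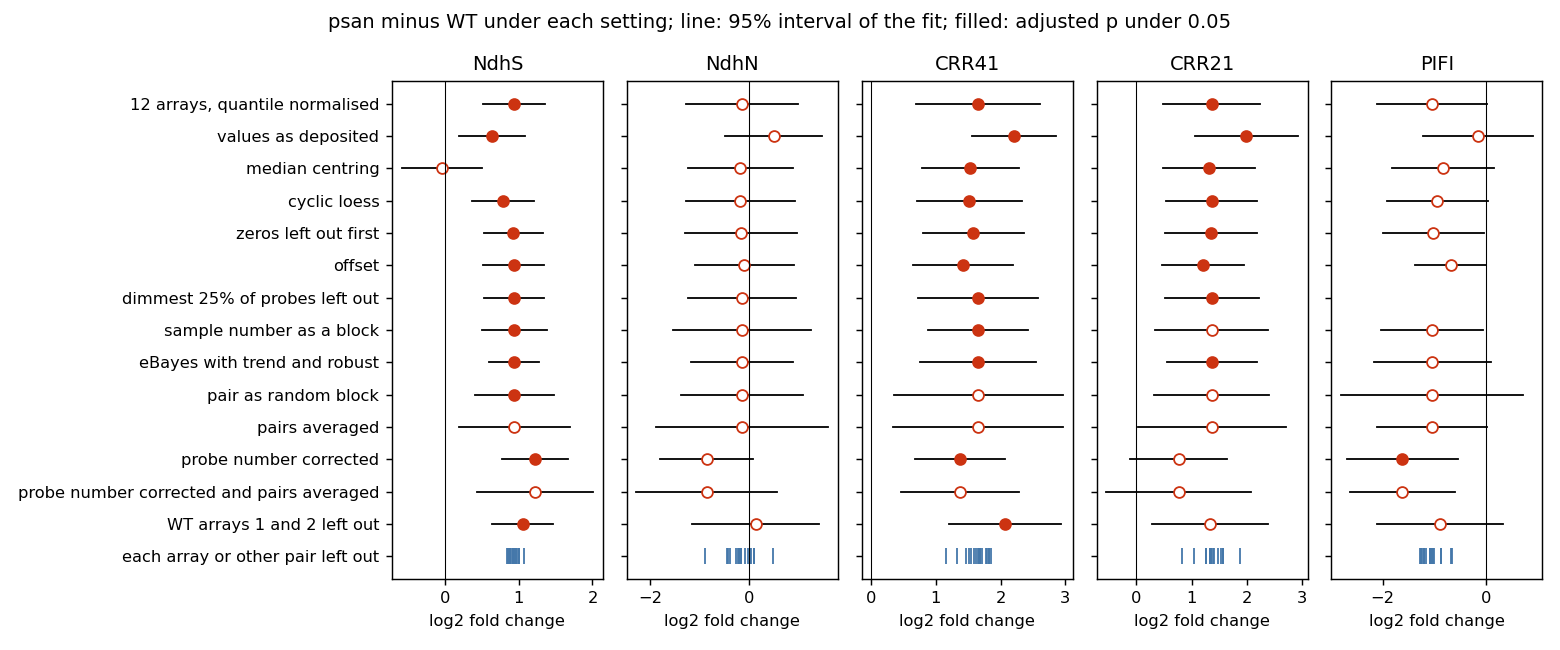
Log2 fold change, psan minus WT, of each NDH gene (horizontal axes, a scale for each gene) under each setting (rows), with the 95% interval of the fit; filled points have an adjusted p under 0.05, and blue ticks leave out 1 array, or 1 pair other than WT arrays 1 and 2. CRR41 and CRR21 stay above 0 in every row, NdhS drops to -0.04 with median centring alone, NdhN lies on both sides of 0 and PIFI below 0.

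In the fit of single arrays, the subunits (NdhS) and the factors (CRR41 and CRR21) each held a gene called higher, as were 14.3% of all probes tested. Each kind also held a gene that did not pass, NdhN and PIFI, which does not show that its level was unchanged. With pairs averaged, no gene of either kind passed (limma adjusted p = 0.124 for NdhS, 0.121 for CRR41 and 0.179 for CRR21). With the probe number corrected, CRR21 did not pass (limma adjusted p = 0.190) and PIFI passed as lower (0.0322). With every array centred on its median, NdhS had -0.04 (limma adjusted p = 0.918) and NdhN had -0.17 (0.826), so no subunit passed. CRR41 (0.0050) and CRR21 (0.0216) still passed as higher under that scaling. On each array the mean log2 signal of NdhS and NdhN was set against that of CRR41, CRR21 and PIFI. In WT this log2 ratio was 3.24 ± 0.63 (SD, n = 6), and in psan it was 2.98 ± 0.76 (SD, n = 6), with ranges of 2.36 to 4.21 and 1.91 to 3.95, so the groups overlapped. Its change of -0.26 turned to 0.28 without NdhN and 0.24 without CRR41, and was -1.11 without PIFI, -0.80 without NdhS and -0.78 as deposited. Since the genes were chosen with results known, these ratios are descriptions with no test.

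Of the 6 ratios of a single subunit to a single factor, 0 separated the psan from the WT arrays, after normalisation or as deposited. The ratio of NdhS to CRR21 had the tightest psan values, at 4.61 to 5.02, against 4.12 to 6.79 in WT. The ratios of NdhS and of NdhN to PIFI changed by 1.98 and 0.90 and those to CRR41 by -0.72 and -1.79. Among the factors, the log2 ratio of CRR41 to PIFI was -1.59 to 1.45 in WT and 2.13 to 4.26 in psan, without overlap. As deposited that ratio overlapped, reaching 2.09 in WT and starting at 1.99 in psan. The ratios of CRR41 to CRR21 and of CRR21 to PIFI overlapped on both scales. What share of all pairs of probes would separate the groups was not tested.

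**Figure D5:**
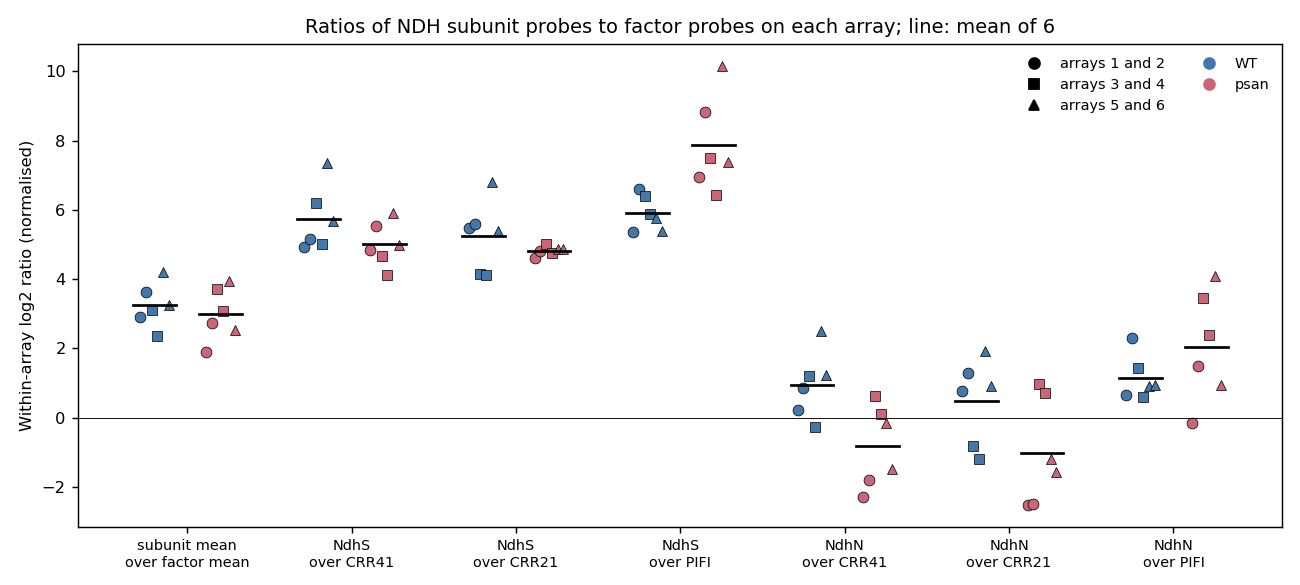
Within-array log2 ratio of normalised signals (vertical axis) of NDH subunit probes to factor probes on the 6 WT (blue) and 6 psan (red) arrays, with symbols for the pairs of arrays and a line at the mean of 6. WT and psan overlap in each ratio; heights of different ratios depend on the probes and are not compared.

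Across the 12 arrays, normalised log2 signals of NdhS, CRR41 and CRR21 correlated with each other at r = 0.716 to 0.748, values that include the difference between the groups. With the group means removed, r was 0.214 for NdhS and CRR41, 0.248 for NdhS and CRR21 and 0.463 for CRR41 and CRR21. NdhN correlated with NdhS at -0.183, with CRR21 at -0.269, with CRR41 at 0.134 and with PIFI at 0.176. The points share arrays, scaling and the pairing of arrays, so these values are descriptions.

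Among the 427 other single-gene probes above 0 on all 12 arrays, those most like NdhS were AT1G72020 (r = 0.959 over 12 arrays, or 0.784 with group means removed) and AT3G52070 (0.934, or 0.656). Both passed, with log2 fold changes of 1.47 and 1.19. Those most like CRR41 were AT5G40030 (r = 0.885, or 0.758 with group means removed) and AT2G25870 (0.870, or 0.710), with log2 fold changes of 3.72 and 1.59. AT5G66050 (r = 0.887, or 0.783) and AT2G39100 (0.840, or 0.633) were most like CRR21, with log2 fold changes of 0.61, which did not pass, and 2.30. AT3G07790 (r = 0.865, or 0.878) and AT5G19540 (0.809, or 0.846) were most like NdhN, and neither passed. For PIFI the highest values were lower, 0.699 (or 0.581) for AT4G38020 and 0.694 (or 0.525) for AT5G55220. All these probes were picked by correlations that include the difference between the groups. Those picked for a gene that rose would therefore tend to rise too, and their fold changes give no support.

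Of the 44 genes listed for the NDH complex and cyclic electron flow, 6 had a probe of their own, the 5 genes above and OTP85 (AT2G02980). The list held 18 nuclear subunit genes, of which 2 were measured, 8 assembly factors with 1 measured and 11 RNA editing or processing factors with 2 measured. The 6 genes for the link to photosystem I, the other cyclic route and chlororespiration had 0 such probes. Statements on subunits and factors therefore rest on these few genes and do not describe the complex as a whole.

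OTP85 is another pentatricopeptide repeat protein needed to edit ndhD. Its deposited intensity had a lowest, median and highest value of 0, 0.0608 and 0.126 on the WT arrays and 0.0967, 0.182 and 0.278 on the psan arrays. It was listed at 0 on WT array 1, and WT arrays 3 and 4, at 0.116 and 0.126, lay above psan array 3. With WT array 1 left out for this gene, its normalised log2 fold change of 0.77 (95% interval -0.013 to 1.54) did not pass (limma adjusted p = 0.128, or 0.340 with pairs averaged). It passed on the values as deposited (1.37, adjusted p = 0.0249, against a median of 0.62 over probes of its brightness) and without WT arrays 3 and 4 (1.20, adjusted p = 0.0458), and was 0.15 with the probe number corrected.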

How the data were processed

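Groups and numbers of the 12 samples came from their titles. The authors deposited 1 intensity per probe and array on a linear scale. The sources used here do not give the array type, scanner or scaling. Probes were named from the platform annotation, with loci from the TAIR10.1 gene table. After quantile normalisation, zeros were set to missing, and limma 3.58.1 in R 4.3.3 (lmFit, eBayes, two-sided, psan minus WT) was run on the log2 scale. A probe needed 1 array above 0 in each group. Exact permutation tests compared mean deposited intensities, zeros kept. The code was tested on simulated data. Alternatives covered scaling, zeros, dim probes, the sample number, the variance model, arrays and pairs left out, pairs averaged or as a block, and the probe number. Leaving out pairs other than WT arrays 1 and 2 was added after seeing the data. The named genes were PSAN, the 5 NDH genes, every list gene with a single-gene probe, and the 2 most correlated probes of each NDH gene. Members and lists were chosen with earlier results of these data known. The number of arrays limits precision. Figures used matplotlib 3.10.9.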

Additional observations from a re-analysis of the deposited data

How the results depend on the processing

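The sample number as a block (replicate block) left 896 probes past the threshold and ended the call of CRR21 (adjusted p = 0.0551, log2 fold change 1.37) and no other call among the 5 NDH genes and PSAN. Across the groups, the deviations of arrays with the same number correlated at -0.155 to 0.228. The labels do not say whether samples with the same number were handled together, and these correlations cannot decide it. The 1010 probes past the threshold fell to 145 with pairs averaged, 553 with the pair as a random block, 586 at an adjusted p under 0.01 and 16 with the probe number corrected and pairs averaged. Averaging pairs, which by construction leaves the log2 fold changes of NdhS (0.94), CRR41 (1.65) and CRR21 (1.37) as they were, ended all 3 calls (adjusted p = 0.124, 0.121 and 0.179), and the standard error of NdhS went from 0.19 to 0.31. The pair as a random block ended the calls of CRR41 (1.65) and CRR21 (1.37). With the probe number corrected and pairs averaged, NdhS had 1.22, CRR41 1.37 and CRR21 0.76, and none of the 3 passed. The probe number alone took CRR21 to 0.76, past no threshold, and PIFI to -1.62, past it. Median centring turned NdhS to -0.041. NdhN turned to 0.51 as deposited and 0.14 without WT arrays 1 and 2, where CRR21 had 1.34 and did not pass. Leaving out WT arrays 1 and 2 also gave 1013 probes and 2.07 for CRR41. Leaving out each array, or each of the other 5 pairs, gave 773 to 980 probes, 0.85 to 1.07 for NdhS, -0.89 to 0.50 for NdhN, 1.15 to 1.86 for CRR41, 0.83 to 1.87 for CRR21 and -1.27 to -0.65 for PIFI, with values above 0 for NdhN without WT array 2 (0.038), psan array 1 (0.12), psan array 2 (0.11), psan arrays 1 and 2 (0.50) and psan arrays 5 and 6 (0.019). The change in the ratio of subunits to factors, -0.26, was 0.013 with the probe number corrected, 0.28 without NdhN, 0.24 without CRR41, 0.094 without CRR21, -1.11 without PIFI, -0.80 without NdhS and -0.78 as deposited. The cause of these changes was not tested. PSAN passed in all 30 alternatives. PIFI was not in the fit without the dimmest 25% of probes. For the 5 NDH genes, PSAN and OTP85, no single array stood far from its nearest neighbour in 13 groups of 6 arrays, a comparison that cannot show a pair standing apart together, such as psan arrays 3 and 4 for NdhN.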

Other observations

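The editing factors CRR21 and OTP85 followed each other closely from array to array. Over the 11 arrays where OTP85 was above 0, their normalised log2 signals correlated at r = 0.942, or 0.922 with the group means removed. Of 452 single-gene probes with a value on these arrays, OTP85 had the highest correlation with CRR21 in both cases, and the next highest without removal of the group means had 0.888. In WT both were highest on arrays 3 and 4, and in psan both were lowest on array 3 and highest on arrays 1 and 2. Their probes were 2552 numbers apart and in different rows of the probe number. Both genes belong to the large pentatricopeptide repeat family, and whether the probes share target sequence was not tested. OTP85 was chosen for this comparison after its values were seen.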
